A study of Mus musculus with 46 samples.

Results

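The elements described here are 10 candidate cis-regulatory elements (cCREs, stretches of DNA that may switch genes on or off) that lie between the genes Cyp4f18 and Ap1m1 in the Klf2 locus of the mouse. They were chosen by position: every Klf2-locus cCRE that starts between 72.005 and 72.240 Mb of chromosome 8 and was measured in front of a promoter, leaving out E029, E030 and E040. They are E027, E031, E033, E034, E035, E036, E037, E038, E039 and E041, out of 82 Klf2-locus cCREs measured upstream of a promoter and 84 measured downstream. E032, which starts at 72136743, is inside the range but had no construct in front of a promoter among those analysed here, so it is not one of the 10.

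Enhancers are DNA elements bound by transcription factors that raise transcription from a promoter, and silencers lower it. A reporter assay takes an element out of the chromosome and asks how much RNA a plasmid makes when the element is cloned next to a chosen promoter. Klf2 encodes a zinc-finger transcription factor that helps to keep mouse embryonic stem cells in the ground state, and its chromosomal neighbourhood also holds genes that are active in many cell types.

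Massively parallel reporter assays were run in E14TG2a cells, an established mouse embryonic stem cell line, kept in medium with 2i (inhibitors of MEK and GSK3) and leukaemia inhibitory factor. All constructs of a mix were brought together into the same untreated cells by nucleofection, and RNA was taken 24 h later from 3 biological replicates, which the labels call independent. The comparisons are therefore between constructs and not between cell states, and the plasmids were measured outside their chromosomal place. In the Upstream assay a cCRE stood in front of 1 of 23 promoter fragments and the reporter, each in plus or minus orientation as the tables sign it. In the Downstream assay the cCRE stood behind a reporter driven by 1 of 10 of these promoters, all listed in plus orientation.

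Activity is the authors' ratio of reporter RNA barcodes (cDNA) to plasmid barcodes (pDNA) of a construct in a replicate, on a linear scale. Differences are given on the log2 scale, where 1 is a doubling. The boost index compares a construct, on the log2 scale, with the median construct that carries the same promoter in the same orientation. Upstream that median was taken over the cCRE constructs. Downstream it was taken over the cCRE constructs and the control inserts with shuffled cCRE sequences. The 10 cCREs were measured in 485 Upstream constructs, 472 of them above 0 in all replicates, and in 181 Downstream constructs. The number of barcodes and reads behind a construct is unknown here, so replicates are the only measure of precision, and they received the same library mix. Over the 472 Upstream constructs the replicates correlated with Pearson's r of 0.954 to 0.962 on the log2 scale, and over the 181 Downstream constructs with 0.968 to 0.985. The median SD between replicates was 0.42 on the log2 scale Upstream and 0.13 Downstream.

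The elements run from chr8:72105226-72105676 (E027) to chr8:72215053-72215503 (E041) in GRCm38 (mm10). Each fragment's start and end are 450 bp apart, and none overlaps its neighbour: the smallest gap between neighbours is 3129 bp and the largest 30419 bp. By the spans of RefSeq genes, 8 of the 10 lie within a gene. E031 (chr8:72136095-72136545), E033 (chr8:72149062-72149512) and E034 (chr8:72152641-72153091) lie within Tpm4, which encodes an actin-binding tropomyosin. E035 (chr8:72171885-72172335) and E036 (chr8:72177377-72177827) lie within Rab8a, which encodes a small GTPase of membrane traffic. E037 (chr8:72192062-72192512) and E038 (chr8:72197923-72198373) lie within Hsh2d, which encodes an adaptor with an SH2 domain, and E039 (chr8:72207222-72207672) lies within Cib3, of the calcium- and integrin-binding protein family. E027 lies between genes, 1364 bp from the olfactory receptor gene Olfr374, and E041 lies between genes, 1967 bp from Cib3. Only gene spans were used, so exons and introns were not told apart.

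Of the 23 promoter fragments, 19 overlap a RefSeq transcription start window, and 0 of the 10 cCREs do. The sequences below are the 250 bases before the RefSeq start (GRCm38.p6) of 3 promoters that recur in the pairs described below, P001, P009 and P017, and of the Klf2 promoter, P016, after which the locus is named. Each lies wholly within its promoter fragment, and each is written 5′ to 3′ on the strand of the gene. Capitals mark matches, on either strand, to GGGCGG (the core of a GC box, which Sp and Klf factors can bind) or CCAAT (the core of a CCAAT box). TATAAA was searched as well and matched none of them.
P001, Zfp882, chr8:71908356-71908605, plus strand: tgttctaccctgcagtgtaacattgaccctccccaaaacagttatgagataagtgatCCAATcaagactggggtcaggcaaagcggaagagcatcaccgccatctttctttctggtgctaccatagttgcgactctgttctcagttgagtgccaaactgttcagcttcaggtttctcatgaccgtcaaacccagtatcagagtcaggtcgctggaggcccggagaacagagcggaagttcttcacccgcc
P009, Rab8a, chr8:72160950-72161199, plus strand: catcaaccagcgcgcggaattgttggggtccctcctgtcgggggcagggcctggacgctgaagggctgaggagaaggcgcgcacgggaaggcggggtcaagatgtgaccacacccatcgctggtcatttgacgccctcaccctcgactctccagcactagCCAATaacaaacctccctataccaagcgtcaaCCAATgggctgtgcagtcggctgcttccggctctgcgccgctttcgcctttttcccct
P017, Eps15l1, chr8:72421475-72421724, minus strand: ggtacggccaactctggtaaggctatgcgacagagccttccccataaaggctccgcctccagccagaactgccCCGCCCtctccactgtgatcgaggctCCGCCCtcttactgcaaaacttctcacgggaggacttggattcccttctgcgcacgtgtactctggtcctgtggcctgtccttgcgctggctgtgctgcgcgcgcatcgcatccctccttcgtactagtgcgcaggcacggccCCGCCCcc
P016, Klf2, chr8:72318812-72319061, plus strand: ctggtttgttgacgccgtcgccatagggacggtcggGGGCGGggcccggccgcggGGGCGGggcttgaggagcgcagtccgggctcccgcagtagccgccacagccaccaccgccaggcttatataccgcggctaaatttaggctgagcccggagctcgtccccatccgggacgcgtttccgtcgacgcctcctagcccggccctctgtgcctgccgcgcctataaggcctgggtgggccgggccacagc

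The GC content of these stretches is 50.8% for P001, 61.6% for P009, 63.2% for P017 and 71.2% for P016, against a median of 52.4% over all 32851 RefSeq windows cut to the same length. P017 has 3 matches to GGGCGG and P016 has 2, and 32.7% of the windows have at least 1. P001 has 1 match to CCAAT and P009 has 2, and 33.8% of the windows have at least 1. A match to TATAAA was found in 12.4% of the windows. These are descriptions of letters and not of bound sites.

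Placed in front of promoters and averaged over all oriented promoters and both orientations, most of the cCREs lay below the median construct. E038, E041 and E036 were called lower than the median construct with the same promoter, and none of the 10 was called higher in this test. The mean boost indices of the 10 ran from -0.62 to 0.09 with a median of -0.18, and 8 of the 10 lay below 0. Over all 79 cCREs tested, the range was -0.78 to 2.49 with a median of -0.07. The Upstream test called 50.6% of the 79 cCREs in either direction, 31.6% lower and 19.0% higher, against 3 of the 10, all lower.

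E038, in Hsh2d, had mean boost indices of -0.86, -0.56 and -0.45 in replicates 1, 2 and 3, a mean of -0.62 ± 0.21 (SD, n = 3, limma with Benjamini-Hochberg adjustment, adjusted p = 0.00311). All 3 replicates were well below 0, and E038 ranked 77 of 79 from high to low. E041 had -0.29, -0.45 and -0.17 (mean -0.30 ± 0.14, SD, n = 3, limma adjusted p = 0.0179), and E036 had -0.35, -0.28 and -0.20 (mean -0.28 ± 0.08, SD, n = 3, limma adjusted p = 0.0165). For E036 and E041, too, every replicate lay below 0. E031, in Tpm4, had the highest values, 0.07, 0.15 and 0.06, with a mean of 0.09 ± 0.05 (SD, n = 3, limma adjusted p = 0.282). The replicates of E031 all lay above 0 by less than the test could separate from it.

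Of the others, E034 averaged -0.28 ± 0.30 and E033 -0.20 ± 0.19, with replicates from -0.59 to 0.01 and from -0.40 to -0.03. E037 averaged -0.16 ± 0.08, E027 -0.04 ± 0.06, E035 -0.04 ± 0.14 and E039 0.02 ± 0.01 (SD, n = 3). None of these 6 passed the test. E033 rests on 9 constructs in 1 orientation, E035 on 18 and E034 on 20, whereas E027 and E036 rest on 83 each. The calls depend on taking each replicate against its own median construct: as 3 activities against 3 baselines with no replicate block, 0 of the 10 passed in limma (0 at an unadjusted p under 0.05), where 3.80% of all cCREs did. Without replicate 1 the calls fell to 1 (E038), with E036 at -0.24 (limma adjusted p = 0.223) and E041 at -0.31 (0.101), where 31.6% of all cCREs passed. Without replicate 3 they rose to 5 with E033 and E034 added, where 58.2% of all passed.

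Error differed with the strength of the promoter. The promoter fragments alone split into 19 oriented fragments with activities of 1.13 to 18.6 and 27 with activities of 0.0742 to 0.418, here called active and weak, with the split at 0.5. The empty vector had activities of 0.122, 0.0700 and 0.240 in replicates 1 to 3, so that the weakest promoters lie close to it. The strongest weak fragment, P025 in plus orientation, lay above it with 0.455, 0.302 and 0.533. The constructs of the 10 cCREs had a median SD between replicates of 0.17 on the log2 scale with active and 1.03 with weak promoters. With active promoters only, the mean boost index of E038 was -0.96 ± 0.25, of E041 -0.34 ± 0.02 and of E036 -0.20 ± 0.03 (SD, n = 3). The replicates of E038 were -1.25, -0.85 and -0.78 there. With weak promoters the index of E038 was -0.19 ± 0.16, that of E041 -0.27 ± 0.24 and that of E036 -0.33 ± 0.12, lower than with active promoters for E036 alone of these 3. In the fit on active promoters, 7 of the 10 passed, where 71.8% of 78 cCREs did: E038, E041, E036, E033 and E035 lower, and E031 (0.12 ± 0.02, SD, n = 3, limma adjusted p = 0.00946) and E039 (0.10 ± 0.05, adjusted p = 0.0227) higher.

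Against the promoter fragment alone, without any cCRE, most constructs of the 10 were lower. The difference was below 0 in 404 of 472 pairs, with a median of -0.40, and in 2646 of 3685 pairs of all cCREs, with a median of -0.28. In limma 62 of the 472 pairs were called lower and 1 higher, 13.1% and 0.212%, against 12.0% and 4.10% of all 3685 pairs and 16.1% in either direction. The share of lower calls among the 10 is near that background. With active promoters 61 of 227 pairs were called lower (24.5% of all such pairs) and 0 higher (4.26%, and 28.7% in either direction). With weak promoters 1 pair was called lower and 1 higher out of 245, where 0.519% and 3.95% of all such pairs were, 4.47% in either direction.

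The same transfected cells give a construct and its baseline, and with the replicate as a block 135 of the 472 pairs passed, where 28.2% of all pairs did. A fit on the active promoters alone called 154 of 227, where 61.3% of all such pairs were called. Without replicate 1, 2 or 3 in turn, 0 pairs of the 10, and 0 of all 3685, passed at an adjusted p under 0.05 in limma, while 57, 66 and 156 of the 472 had an unadjusted p under 0.05.

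Called pairs gathered on a few cCREs. E038 was called lower with 15 of 17 active constructs, over 0 of 13 weak ones, and its 17 differences ran from -2.49 to -0.85 with a median of -1.35. E041 was called lower with 17 of 37 active constructs and E036 with 11 of 36. For E027 it was 4 of 37, for E031 5 of 34, for E039 2 of 25, for E037 3 of 14, for E034 2 of 11, for E035 2 of 9 and for E033 0 of 7.

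E038 in plus orientation in front of P017 in minus orientation had activities of 0.464, 0.811 and 0.815, and P017 alone had 2.20, 2.21 and 2.13. The difference was -1.69 ± 0.26 (SE, n = 3 against 3, limma adjusted p = 0.0178). P017 is the fragment at the start of Eps15l1, whose sequence is given above, and every construct value lay below every value of the promoter alone. This holds for the minus orientation of P017, with an activity alone of 2.18, against 13.99 in plus orientation. With P017 in plus orientation, the lowest of 18 constructs of the 10 cCREs had a difference of -0.95. Of these 18, 2 were called, against 13 of 135 over all cCREs.

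E038 in minus orientation with P018 in minus orientation, a fragment at the starts of Calr3 and 1700030K09Rik, had 0.693, 0.703 and 0.768 against 2.55, 2.22 and 2.21 (difference -1.69 ± 0.12, SE, limma adjusted p = 0.00654). In plus orientation it had 0.817, 0.682 and 0.919 with the same promoter (difference -1.54 ± 0.16, SE, limma adjusted p = 0.00769). Both orientations of E038 thus gave activities that did not overlap those of P018 alone. E041 in minus orientation with P019 in minus orientation, at the start of Cherp, had 1.44, 1.74 and 1.40 against 4.71, 4.54 and 4.09 (difference -1.54 ± 0.14, SE, limma adjusted p = 0.00681). These groups did not overlap either.

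The only pair called higher was E041 in minus orientation with P002 in plus orientation, a weak fragment within Zfp882. It had activities of 0.682, 0.718 and 0.684 against 0.145, 0.109 and 0.282 for P002 alone (difference 2.07 ± 0.37, SE, limma adjusted p = 0.0242). The construct varied little between replicates, and the spread lay in the promoter alone, which is near the empty vector. With the same oriented promoter, the plus orientation of E041 differed from its minus orientation by -2.54, -3.84 and -1.72. It was thus the lower orientation in every replicate.

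By promoter, the plus orientation of P001, the Zfp882 promoter, had all 17 constructs with the 10 cCREs below the promoter alone and 10 called, with a median difference of -0.74, against 77 of 126 called and -0.69 over all cCREs with this promoter. For P017 in minus orientation it was 16 of 16 below, 10 called and a median of -0.68, against 53 of 119 called and -0.46 over all cCREs. For P009 in plus orientation, the Rab8a promoter, 15 of 17 lay below, 8 were called, and the median was -0.48, against 49 of 135 called and -0.21 over all cCREs. With P003 in minus orientation, at the start of Zfp961, 6 of 9 lay below, 0 were called, and the median was -0.10, against 16 of 71 called and 0.04 over all cCREs.

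Placed behind the reporter, the same cCREs were tested against control inserts, and not against the median construct as Upstream. The calls of the assays therefore have unlike baselines. Against the promoter alone, means ran from -0.92 (E038) to -0.17 (E031) Upstream. Downstream they ran from -0.69 (E038) to 0.16 (E031), with E035 next highest at -0.13. Against the median construct, 5 were called higher and 4 lower Downstream in limma. E031, E035, E036, E039, E027 and E033 were higher than control inserts with the same promoter, and E038 and E034 were lower. The control inserts were 15 shuffled cCRE sequences and 5 random sequences. The Downstream test called 81.2% of all 80 cCREs in either direction, 58.8% higher and 22.5% lower, against 8 of the 10, so that being called does not set these cCREs apart from the rest. The means of the 10 ran from -0.22 to 0.62 with a median of 0.24, and those of all 80 from -0.93 to 1.17 with a median of 0.18.

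E031 stood highest, at 0.63, 0.59 and 0.65 over the controls in replicates 1, 2 and 3 (mean 0.62 ± 0.03, SD, n = 3), and ranked 9 of 80. E035 had 0.36, 0.33 and 0.30 (mean 0.33 ± 0.03), and E036 had 0.35, 0.25 and 0.36 (mean 0.32 ± 0.06). E039 had 0.36, 0.28 and 0.28 (mean 0.31 ± 0.04), so that the replicates of E035, E036 and E039 overlapped one another and lay below all those of E031. E027 averaged 0.26 ± 0.03 and E033, with 7 constructs in 1 orientation, 0.23 ± 0.10 (SD, n = 3).

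E038 had -0.16, -0.24 and -0.27 (mean -0.22 ± 0.06, SD, n = 3), and E034 had -0.11, -0.19 and -0.20 (mean -0.17 ± 0.05). Both lay below 0 in every replicate and overlapped each other. E037 averaged -0.07 ± 0.05 (limma adjusted p = 0.053) and E041 -0.03 ± 0.03 (limma adjusted p = 0.409). E037 passed in limma as lower at -0.20 by the median over promoters (adjusted p = 2.26e-05), at -0.21 without P001 (1.58e-08), at -0.096 without replicate 1 (0.00778) and at -0.26 against the median construct (3.35e-09). Against the median construct E041 passed as lower as well, at -0.20 (limma adjusted p = 2.08e-07), and E033 no longer passed, at 0.03 (0.253). Limma gave each cCRE the same pooled SE of 0.04, and the adjusted p of the 8 called ran from 2.87e-37 for E031 to 1.09e-05 for E034. These p-values measure only the spread between replicates that received one library mix. The 20 control inserts, averaged in the same way, ran from -0.44 to 0.64 with a median of -0.08, and 0 of the 10 cCREs lay above or below that range, against 8 of 80 above and 4 of 80 below among all cCREs. The choice of baseline moves these values. The promoter vector with no insert had a higher activity than the mean of its control inserts for all 10 promoters. Against that vector E031 averaged 0.16 and the other 9 cCREs between -0.69 (E038) and -0.13 (E035). E032, the neighbour of E031 in Tpm4, had 0.65, 0.38 and 0.45 over 5 constructs (mean 0.50 ± 0.14, SD, n = 3).

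Pair by pair, 61 of the 181 Downstream constructs were called higher than the controls and 22 lower in limma, 33.7% and 12.2%, against 37.0% and 15.3% of all 1364 constructs and 52.3% in either direction. The median difference was 0.21 for the 10 and 0.18 for all. The control inserts of a pair entered as a mean per replicate. The spread between single control inserts is therefore outside the error of these tests. With the replicate as a block 152 of the 181 passed, where 83.9% of all constructs did. Without replicate 2 the number fell to 48, where 33.3% of all passed. Against the promoter vector with no insert, 9 of the 181 were called higher and 76 lower, where 10.6% and 42.4% of all constructs were.

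E035 in minus orientation behind P001 had activities of 0.388, 0.496 and 0.432, and the controls with P001 averaged 0.142, 0.177 and 0.207 (difference 1.33 ± 0.15, SE, n = 3 against 3, limma adjusted p = 5.5e-05). E031 with P001 had 0.342, 0.388 and 0.449 in minus orientation (difference 1.17 ± 0.15, SE, limma adjusted p = 0.000134). In plus orientation it had 0.282, 0.354 and 0.401 (difference 0.98 ± 0.16, SE, limma adjusted p = 0.000596). None of these values overlapped the replicate means of the controls, which do not show the spread between single control inserts.

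P001 has the lowest control mean of the 10 Downstream promoters, and it has 10 control constructs where the other 9 promoters have 32 to 40. P001 alone had an activity of 0.351, above the control mean of 0.173. Against P001 alone the differences were 0.31 for E035, 0.15 for E031 in minus orientation and -0.038 for E031 in plus orientation, and none passed in limma (adjusted p = 0.0802, 0.387 and 0.857).

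E031 in plus orientation behind P009, the Rab8a promoter, had 1.82, 1.77 and 1.64, where the controls had 0.737, 0.698 and 0.642 (difference 1.33 ± 0.11, SE, limma adjusted p = 9.47e-06). This is more than a doubling over the control mean in every replicate, at a promoter about 24 kb from E031 in the genome (24279 bp). Against the P009 vector with no insert the difference was smaller, at 0.56 (limma adjusted p = 0.00204). The lowest constructs were of E034 and E038. E034 in minus orientation behind P014, a fragment within Ap1m1, had 0.525, 0.452 and 0.406 against 1.23, 1.15 and 1.04 (difference -1.31 ± 0.13, SE, limma adjusted p = 2.28e-05). Behind P017 it had 0.797, 0.797 and 0.733 against 1.55, 1.59 and 1.42 (difference -0.97 ± 0.11, SE, limma adjusted p = 4.88e-05).

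E038 in plus orientation had 0.382, 0.322 and 0.289 behind P009 against 0.737, 0.698 and 0.642 (difference -1.07 ± 0.13, SE, limma adjusted p = 7.46e-05). Behind P013, the promoter of Fam32a, it had 0.571, 0.468 and 0.379 against 0.955, 0.845 and 0.746 (difference -0.86 ± 0.16, SE, limma adjusted p = 0.00101). All 4 of these lowest constructs lay below the mean of their controls in every replicate. P009 therefore held both one of the highest and one of the lowest values, with E031 and E038 in the same orientation and the same promoter vector.

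Over all its constructs with the 10 cCREs, P001 had a median difference of 0.69 (13 of 19 called higher, against 92 of 133 over all cCREs), P022 of 0.31, P009 of 0.28 and P017 of -0.07 (2 of 19 higher and 6 lower, against 24 and 51 of 153). The medians over all cCREs were 0.72, 0.29, 0.31 and -0.08 for the same promoters, close to those of the 10. With P016, the Klf2 promoter, the median was -0.03 for the 10 and 0.05 for all.

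Turning a cCRE around changed its Downstream activity for several of the 10. The difference between plus and minus orientation, over the same promoters, was called for 6 of 9 cCREs measured both ways, 4 higher in plus and 2 in minus orientation, where 85.5% of all 69 were called, 47.8% and 37.7%. E034 had the highest plus minus minus difference of the 69: 0.91, 0.91 and 1.02 in replicates 1, 2 and 3 (mean 0.95 ± 0.06, SD, n = 3, limma adjusted p = 2.11e-05). It was above the controls in plus orientation (0.34, 0.27 and 0.31) and below them in minus orientation (-0.56, -0.65 and -0.71). Plus was the higher orientation with all 10 promoters, by 0.32 to 1.36. The mean of E034 over both orientations thus averages values above and below the controls.

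E038 ran the other way, with -0.52, -0.52 and -0.57 (mean -0.53 ± 0.03, SD, n = 3, limma adjusted p = 2.35e-05). It lay at -0.42, -0.50 and -0.56 in plus orientation and at 0.10, 0.02 and 0.01 in minus orientation, with the minus orientation higher for 9 of the 10 promoters. E039 was higher in plus orientation by 0.40, 0.30 and 0.36 (mean 0.35 ± 0.05, SD, n = 3, limma adjusted p = 0.000157), with 8 of 10 promoters. E035 (0.29 ± 0.05, SD) and E037 (0.22 ± 0.11, SD, over 4 promoters) were also higher in plus orientation, and E036 was lower by a small margin (-0.06 ± 0.02, SD). The call of E036 was lost without any 1 replicate and that of E037 without replicate 3. E027, E031 and E041 had differences of -0.01, -0.03 and -0.02, which did not pass.

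In front of the promoter, orientation was called for 1 of 7 cCREs, where 34.6% of all 52 were called, 21.2% as higher in plus orientation. E031 was higher in plus orientation by 0.51, 0.48 and 0.20 (mean 0.39 ± 0.17, SD, n = 3, limma adjusted p = 0.0111), with 23 of 30 oriented promoters. Without replicate 1 or 2 the call was lost, at 0.34 (limma adjusted p = 0.122) and 0.35 (0.105). Upstream, E034 had -0.33, -0.05 and -0.45 over 6 oriented promoters (mean -0.28 ± 0.21, SD, n = 3), below 0 where its Downstream difference was above 0 in every replicate. Without replicate 2 the Upstream difference of E034 was -0.39 and passed (limma adjusted p = 0.0457). E038 had -0.03, 0.08 and 0.02 Upstream, a mean of 0.03 ± 0.06 (SD, n = 3).

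Each cCRE can also be read with the promoter of the gene it lies in, or, between genes, with promoter fragments within 5 kb. Of 27 such Upstream pairs 4 were called, or 7 with the replicate block, where 16.1% and 28.2% of all Upstream pairs were. Of 6 Downstream pairs 1 was called, or 3 with the block, where 52.3% and 83.9% of all Downstream constructs were. The pairs described here were chosen after their values were seen. Over all cCREs with the Rab8a promoter P009, 49 of 135 Upstream constructs were called in its plus and 27 of 87 in its minus orientation. E036, in Rab8a, was called lower in front of P009 in 3 of 4 constructs. Over its 36 constructs with active promoters, E036 averaged -0.52 against the promoter alone. In minus orientation with P009 in plus orientation, 16103 bp away in the genome, it had 1.10, 1.10 and 1.08 against 2.24, 2.03 and 2.02 (difference -0.94 ± 0.11, SE, limma adjusted p = 0.00966), with no overlap. With both in plus orientation it had 1.60, 1.59 and 1.54 (difference -0.41 ± 0.11, SE, limma adjusted p = 0.0653, or 0.0422 with the replicate block). E035, the other cCRE in Rab8a, had 1.59, 1.31 and 1.38 in front of P009, both in plus orientation (difference -0.56 ± 0.13, SE, limma adjusted p = 0.0479). Behind P009 in plus orientation E035 had 1.09, 1.02 and 0.989 against controls of 0.737, 0.698 and 0.642 (difference 0.58 ± 0.11, SE, limma adjusted p = 0.00124). In minus orientation behind P009 the difference of E035 was -0.11 (limma adjusted p = 0.416). The P009 vector with no insert had an activity of 1.18. The start fragments of Olfr374, Tpm4, Hsh2d and Cib3 are weak, and no such pair was called with them.

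With P016, the Klf2 promoter, which lies 103154 to 212981 bp away from the 10, the 13 Upstream pairs ran from -0.88 to 0.16 with a median of -0.35, and 1 was called, or 3 with the replicate block. Of all 109 Upstream pairs with P016, 21 were called, or 29 with the block. The pair called without the block was E041 in minus orientation with P016 in plus orientation, at 0.895, 0.811 and 0.946 against 1.37, 1.20 and 1.49 (difference -0.61 ± 0.14, SE, limma adjusted p = 0.0469). Downstream, 5 of 18 pairs were called, or 15 with the replicate block, and the 18 ran from -0.78 to 0.74 with a median of -0.03. Of all 140 Downstream constructs with P016, 40 were called, or 114 with the block, so the counts of the 10 are near those shares. E035 in plus orientation behind P016 had 1.06, 1.71 and 1.53 against 0.629, 1.06 and 0.900 (difference 0.74 ± 0.21, SE, limma adjusted p = 0.0124). E038 in plus orientation had 0.366, 0.638 and 0.5002 (difference -0.78 ± 0.22, SE, limma adjusted p = 0.0113). E034 had 0.60 ± 0.19 (SE) in plus and -0.76 ± 0.21 in minus orientation, and E031 in minus orientation 0.59 ± 0.21. Replicate 1 of the P016 vector was lower than the others for constructs and controls alike. The replicate differences were therefore much closer together than the activities, as for E035 in plus orientation with 0.75, 0.70 and 0.77.

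Without a promoter the cCREs made little RNA. Alone in the Upstream vector, the 18 oriented fragments of the 10 lay between -0.83 and 0.24 of the empty vector on the log2 scale, with a median of -0.10. In all 3 replicates 5 were above it and 6 below. Over all 144 oriented Klf2-locus cCREs the range was -1.58 to 6.08 with a median of -0.05, and 53 were above and 47 below in all 3 replicates. Behind a reporter with no promoter, activities of the 18 averaged 0.0650 to 0.243, where the control inserts averaged 0.0811, 0.125 and 0.108 in the 3 replicates. E034 in plus orientation was the highest, with 0.136, 0.362 and 0.291 (1.24 ± 0.43 over the controls on the log2 scale, SD, n = 3). In minus orientation it had 0.0568, 0.0881 and 0.0890 (-0.43 ± 0.14). All 3 replicates of the plus orientation lay above all 3 of the minus orientation, the order also seen with promoters Downstream but not Upstream. E038 in plus orientation was the lowest, at -0.66 ± 0.09 (SD, n = 3). The 39 oriented control inserts ran from -1.25 to 2.37, so that all 18 lay inside their range.

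The order of the 10 was similar in both assays. Over the 10 cCREs, the mean Upstream boost index and the mean Downstream difference from controls correlated with Pearson's r of 0.80 and Spearman's rho of 0.78. Over the 75 cCREs measured in both, r was 0.64 and rho 0.62. The points share cCRE sequences and promoters, so these are descriptions. A comparison of the same oriented cCREs with the same oriented promoters in both assays, each as a boost index, was added after the data had been seen. The baselines of the indices are unlike, since shuffled control inserts enter the Downstream median only. The comparison called 67.6% of 71 cCREs, 29.6% higher and 38.0% lower in front, and of the 10 it called 2 higher and 4 lower. E038 was lower in front than behind (-0.84 ± 0.11 against -0.36 ± 0.05, SD, n = 3, over 8 constructs, limma adjusted p = 0.000153). E036 was lower in front as well (-0.19 ± 0.03 against 0.15 ± 0.04, over 19 constructs, limma adjusted p = 6.82e-05), and so was E031 (0.17 ± 0.02 against 0.45 ± 0.02, over 16 constructs, limma adjusted p = 9.79e-05). E034 and E037 were higher in front than behind.

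E027 is the one cCRE of the 10 whose shuffled sequence was also measured. Its 3 shuffled versions averaged -0.19, -0.0043 and 0.37 over the controls Downstream, and E027 itself 0.26. The mean of E027 includes P001, where no shuffled version was measured, and without P001 it was 0.22. The shuffled versions are part of the control mean. E027 lay above the mean of its shuffled versions with 7 promoters and above every one of them with 1 (P009), out of 9 promoters where they were measured. The native sequence thus lay within the spread of its own shuffled versions.

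The Upstream library also held constructs in which the promoter came first and the cCRE stood between it and the reporter. With active promoters these had much lower activity than the promoter alone: -2.36 ± 0.26 on the log2 scale over all 1997 such constructs (SD over replicates, n = 3). Of the 10, E036 was the lowest there (-3.01 ± 0.36) and E031 the highest (-1.45, -1.26 and -1.19, mean -1.30 ± 0.14), followed by E039 (-2.09 ± 0.14). All 3 replicates of E031 lay above all 3 of each of the other 9. These means rest on 8 (E034) to 35 (E039) constructs, and the promoters were not matched between cCREs. In front of another cCRE in place of a promoter, E031 averaged 0.09 ± 0.02 over that cCRE alone, E041 -0.45 ± 0.28 and E036 -0.43 ± 0.29, and 0.07 ± 0.04 was the mean over all 10157 such constructs.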

How the data were processed

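Per the submitters' processing notes, reads were processed with Bowtie2 and the build was mm10. How barcodes were counted, filtered and averaged is not given in the sources used here. The authors deposited activity as a linear ratio of cDNA to pDNA per biological replicate, and a boost index as a log2 value. The deposited index equalled log2 of the geometric mean over the median construct with the same oriented promoter, within 0.001, for all 3685 Upstream and 1364 Downstream constructs compared. Of the value columns, 20 were not assigned to a sample and were not used in tests. The 3 Upstream and 3 Downstream cDNA samples were used, of 46 in the series.

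From the ratios, log2 activities were computed, leaving out constructs with a replicate at 0. limma 3.58.1 in R 4.3.3 (lmFit, eBayes, two-sided) tested pairs against the promoter alone (Upstream) or control inserts (Downstream) over all Klf2-locus constructs. Means per cCRE, with at least 3 promoters, and orientation differences were tested against 0. Benjamini-Hochberg adjustment ran over all features at 0.05. The fits were tested on simulated data. Tables were made with Python 3.11.15, pandas 2.3.3 and numpy 2.4.6.

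A construct and its baseline come from the same transfected cells, so replicate numbers pair them. Their deviations correlated with 0.02, 0.59 and 0.79 in Upstream replicates 1 to 3 and with 0.91, 0.84 and 0.85 Downstream.

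Given in full were, per assay, up to 4 of the highest and lowest called cCREs and pairs and up to 3 called orientation differences, or the extremes where fewer were called. The members and rules were chosen with earlier results of these data known. Alternatives were other baselines, pseudocounts of 0.01 and 0.1, a replicate block, other promoter sets and leaving out each replicate.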

Additional observations from a re-analysis of the deposited data

Results flagged for a closer look

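For 6 of the 10 cCREs the boost index differed between the assays by a test of the difference itself, limma on the same constructs in both. The same test called 67.6% of all 71 cCREs, so the count does not set the 10 apart. The Upstream minus Downstream difference was -0.28 for E031, -0.20 for E035, -0.34 for E036 and -0.48 for E038, and it was 0.23 for both E034 and E037. E035 rests on 4 constructs, E034 on 6 and E037 on 7. The Downstream index has shuffled control inserts in its median and the Upstream index does not. Over all 71 cCREs the median difference was -0.08.

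For 3 cCREs the effect of orientation had opposite signs in all replicates of the 2 assays, and the difference between the assays was not tested. The Upstream orientation difference minus the Downstream one was 0.43 for E031, -1.22 for E034 and 0.27 for E036. None of the 3 passed in both assays as reported. E031 did not pass Downstream (limma adjusted p = 0.121), nor E034 (0.0545) and E036 (0.0859) Upstream. The Downstream call of E036 was lost without any 1 replicate. The promoters also differed: 30, 6 and 38 oriented promoters Upstream for E031, E034 and E036, and 10 Downstream for each.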

How the results depend on the processing

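Upstream pair calls among the 10 cCREs, 63 as reported (592 of all 3685 pairs), were 135 with the replicate block (1041 of all), 144 with a variance trend added after seeing the data (1163), 17 against the median construct (267), 154 with active promoters only (1078 of 1760) and 0 whichever replicate was left out (0). Downstream pair calls, 83 as reported (713 of all 1364), were 152 with the replicate block (1145) and 48 to 94 when 1 replicate was left out (454 to 772). Upstream cCRE calls, 3 as reported (40 of all 79), were 0 with no replicate block (3), 9 against the promoter alone (63), 7 with active promoters (56 of 78), 7 with the promoters also used Downstream (60) and 1 to 5 when 1 replicate was left out (25 to 46). Upstream orientation calls, 1 as reported (18 of all 52), were 0 to 1 when 1 replicate was left out (2 to 12). Without replicate 2 the call was E034, lower, in place of E031, higher. E039 reversed to -0.25 Upstream against the promoter alone, and E031 in plus orientation with P001 reversed to -0.038 Downstream against the promoter alone. The replicate block changed no call of the pairs named by the rule, 5 Upstream and 8 Downstream. The number of Downstream cCRE calls was 8 or 9 (60 to 70 of all 80), and that of orientation calls 4 to 6 (50 to 59 of all 69). Both stayed within 1.5 times under the alternatives run. Against the median construct, however, the cCRE calls went from 6 higher and 2 lower to 5 and 4. A baseline of Upstream negative control fragments with the same promoter was not run, since the tables list none. Barcode depth is unknown, and differences between barcoded plasmids of one construct are outside the error given.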
